A study of Mus musculus with 18 samples.

Results

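The Nrf2 pathway antioxidant genes described here are 10 genes of the 54532 in the deposited mouse table. They were listed by name for their place in the pathway, at a time when earlier results of these data were known. They are Nfe2l2, which encodes the transcription factor Nrf2, its repressor Keap1, and 8 antioxidant genes, Nqo1, Hmox1, Gclc, Gclm, Gpx4, Srxn1, Txnrd1 and Prdx1. All 10 were detected in every mouse and were among the 10216 genes that were abundant enough to be tested, with a mean over the mice of at least 1 FPKM, the number of fragments per kilobase of a gene after scaling for library size.

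Nrf2 is made all the time and is normally destroyed, because Keap1 holds it in the cytoplasm and hands it to a ubiquitin ligase built on Cul3. When oxidants or electrophiles modify Keap1, Nrf2 escapes, enters the nucleus, pairs with a small Maf protein and binds the antioxidant response element in the promoters of its targets. In the liver these targets make glutathione, recycle thioredoxin, reduce quinones and break down heme. The level of Nfe2l2 mRNA is therefore not a measure of Nrf2 activity.

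Liver RNA was sequenced from 18 male mice, 6 in each of 3 groups, of the strain C57BL/6J by the study's methods and C57BL/6 by the labels. NC mice were fed normal chow, HFD mice a high-fat diet with saline, and SZ-A mice the same high-fat diet with SZ-A, the alkaloid fraction of mulberry twig (Ramulus Mori). The mice were 6 weeks old on arrival, the high-fat diet ran for 14 weeks before treatment and continued through it, and all mice were fasted overnight before they were killed. Treatment lasted 6 weeks by the study's methods and 8 weeks by the deposited design, and the dose and route for the sequenced mice are not given in the sources used here. For the mouse NC6 the labels name the high-fat diet, against its title, so the log2 fold changes of the 10 genes for HFD against NC are also given without it.

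The antioxidant response element has the core TGACNNNGC, where N is any base. It was looked for on both strands of the RefSeq promoter windows (GRCm38.p6, from 250 bases before to 50 bases after a gene start), which hold 13 starts of 8 of the 10 genes. Hmox1 and Gclc have no entry. The core was present at starts of 5 of the 8 genes, Nfe2l2, Srxn1, Gclm, Prdx1 and Txnrd1, and in 5 of the 13 windows. It was present in 14.7% of the 9710 windows of tested genes and in 12.4% of all 32851 windows, so the short core is common, and a match is a description of the sequence and not evidence of binding. The stretches around the core that end before the gene start are printed here, 5′ to 3′ on the strand of the gene and with the core in capitals, because they let a reader see the element that defines the pathway. They lie at chr2:75704865-75704913 (minus strand) for Nfe2l2, chr3:122245393-122245461 (plus strand) for Gclm, chr4:116685436-116685504 (plus strand) for Prdx1 and chr10:82859084-82859152 (plus strand) for Txnrd1, the last at 1 of its 3 starts.
Nfe2l2: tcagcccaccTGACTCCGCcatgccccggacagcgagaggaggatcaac
Gclm: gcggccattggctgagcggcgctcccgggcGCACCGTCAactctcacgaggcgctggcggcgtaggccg
Prdx1: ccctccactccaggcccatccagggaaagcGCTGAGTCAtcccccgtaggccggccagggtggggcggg
Txnrd1: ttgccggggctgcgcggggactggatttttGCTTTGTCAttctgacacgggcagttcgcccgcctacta
In Nfe2l2 the core reads forward and begins 240 bases before the start. In Gclm, Prdx1 and Txnrd1 it reads as its reverse complement, GCNNNGTCA, 134, 133 and 92 bases before the start. None of these 4 genes passed the test between HFD and NC mice. The windows of Keap1, Nqo1 and Gpx4 hold no such core, which says nothing about elements that lie elsewhere.

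The livers yielded 17163191 to 20493907 fragments on genes per mouse. All 5 hepatocyte markers (Alb, Ttr, Apoa1, Tat and Cps1) were present in every group. The sum of FPKM over all genes ran from 353946 to 424825 in HFD mice, against 402436 to 489187 in NC mice and 400729 to 442892 in SZ-A mice. Rescaling every mouse to a common sum therefore moved the median log2 fold change of all tested genes to 0.15 for HFD against NC and to −0.15 for SZ-A against HFD, and calls of the 10 genes that depend on this are named with each gene. Under that rescaling the calls over all genes for HFD against NC split into 2100 higher and 334 lower, in place of 1092 and 970. Between SZ-A and HFD mice they split into 10 higher and 206 lower. With median-ratio scaling in place of the common sum, the 2 medians were −0.0086 and 0.0032. The calls for HFD against NC were then 1191 higher and 808 lower, and of the 10 genes only Hmox1 and Gclc were called.

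In HFD mice compared with NC mice, Hmox1 and Gclc rose and the other 8 genes did not pass the test. Hmox1 was 2.04-fold and Gclc 1.69-fold higher, and for both genes the lowest HFD mouse lay above the highest NC mouse. The 2 of 10 genes called compare with 20.2% of all tested genes, of which 10.7% were higher and 9.49% lower, so the share called was near the background. Calls are those of limma on log2(FPKM + 0.1), adjusted over the 10216 tested genes by the Benjamini-Hochberg method, and needed both a p so adjusted of less than 0.05 and a change of more than 1.2-fold. The median log2 fold change of the 10 genes was 0.16, against −0.03 over all tested genes, and 9 of the 10 values were above 0. In SZ-A mice compared with HFD mice, 0 of the 10 genes were called by limma, and 0 by voom with either set of library sizes. At an unadjusted p under 0.05, 2 of the 10 were lower, Nqo1 and Gpx4. Only 0.147% of all tested genes (15) were called in this comparison, and 14.8% were under an unadjusted p of 0.05. By DESeq2, which was not run here, the paper reported many more genes for this comparison at the same thresholds. The low count therefore holds for the test used here and is not a measure of how little SZ-A changed. In SZ-A mice compared with NC mice, Hmox1 alone was called, 1 of 10 against 9.60% of all tested genes, of which 5.31% were higher and 4.30% lower. The HFD mice enter both of the first comparisons and the NC mice enter 2 of the 3, so the comparisons are not independent.

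**Figure D1:**
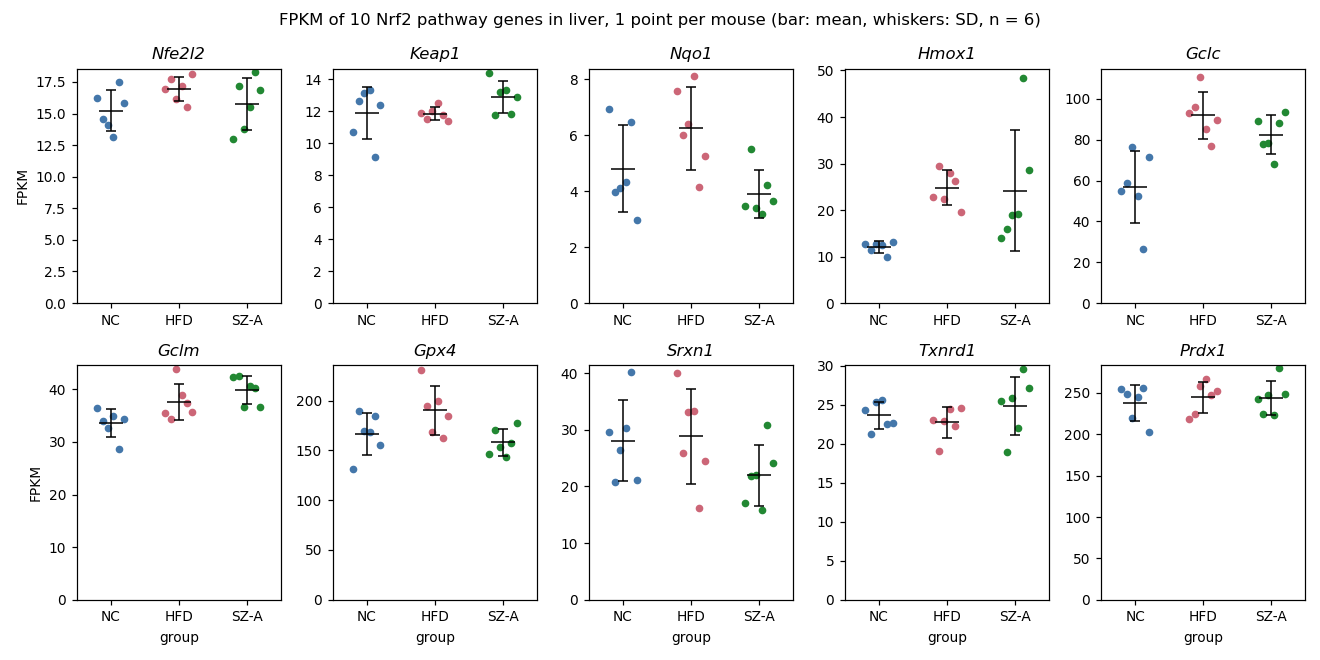
FPKM of the 10 genes (y axis, linear and starting at 0, a scale for each gene) in NC, HFD and SZ-A mice (x axis), with 1 point per mouse, a bar at the mean and whiskers of 1 SD (n = 6). Every HFD point lies above every NC point for Hmox1 and Gclc, and 1 SZ-A mouse stands at 48.5 FPKM for Hmox1.

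**Figure D2:**
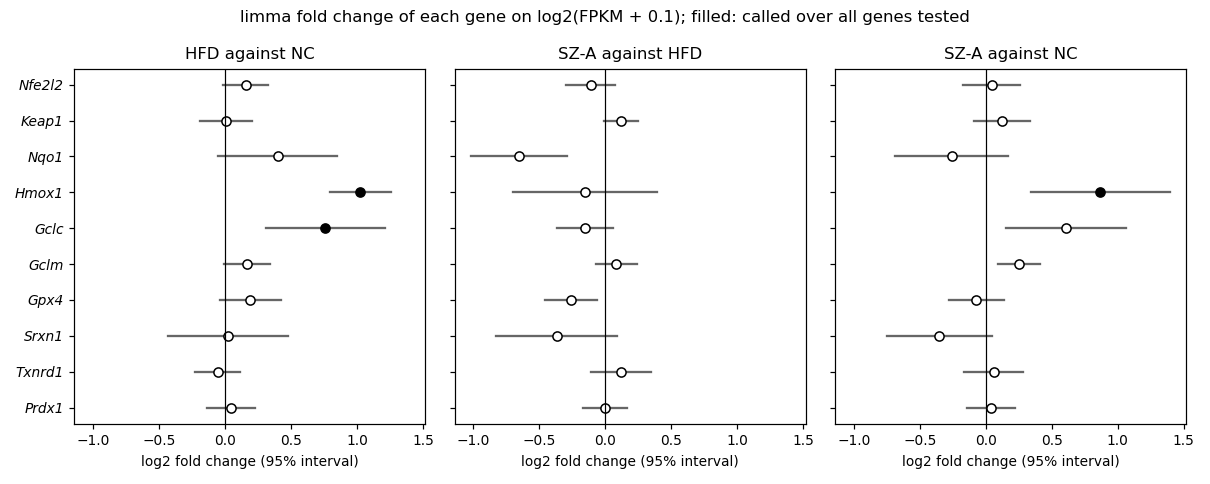
Log2 fold change of each gene from limma (x axis) with its 95% interval, in the 3 comparisons, and with filled points for called genes. Hmox1 and Gclc are called for HFD against NC, no gene for SZ-A against HFD, and Hmox1 for SZ-A against NC.

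Nfe2l2 (ENSMUSG00000015839, chr2:75675513-75704641, minus strand), the gene of Nrf2 itself, was called in no comparison. For this gene, NC mice spanned 13.1 to 17.5 FPKM around a median of 15.2, HFD mice 15.6 to 18.1 around 17.0, and SZ-A mice 13.0 to 18.3 around 16.2. The groups overlapped, and the lowest and the highest of the 18 mice, SZ-A1 and SZ-A5, were both SZ-A mice. Its log2 fold change was 0.16 for HFD against NC (95% interval −0.01 to 0.33, limma adjusted p = 0.180) and −0.11 for SZ-A against HFD (−0.30 to 0.08, limma adjusted p = 0.588). With FPKM rescaled to a common sum, the first became 0.35 (limma adjusted p = 0.0161), of which 0.19 was relative to the shift of all genes. Without NC6 and with no rescaling, the first was 0.17 (limma adjusted p = 0.186).

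Keap1 (ENSMUSG00000003308, chr9:21229730-21239361, minus strand), the adaptor that marks Nrf2 for destruction, had the smallest spread among HFD mice, relative to its mean, of the 10 genes. Its NC mice spanned 9.12 to 13.3 FPKM around a median of 12.5, HFD mice 11.4 to 12.5 around 11.8, and SZ-A mice 11.7 to 14.4 around 13.0. The coefficient of variation was 3.32% in HFD mice, near the 2.97% that counting of fragments alone would give, and 13.8% in NC mice, where NC5 was the lowest. Log2 fold changes were 0.01 for HFD against NC (95% interval −0.19 to 0.20) and 0.12 for SZ-A against HFD (−0.01 to 0.25, limma adjusted p = 0.381), and the latter turned to −0.06 on rescaling to a common sum. Without NC6 the first was 0.02.

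Nqo1 (ENSMUSG00000003849, chr8:107388225-107403206, minus strand) encodes the quinone reductase that is the most used marker gene of Nrf2 activity. It was the least abundant of the 10 genes, with 87 to 251 fragments per mouse. For Nqo1, NC mice spanned 2.97 to 6.96 FPKM around a median of 4.21, HFD mice 4.14 to 8.13 around 6.19, and SZ-A mice 3.17 to 5.52 around 3.56. All 6 SZ-A mice were below the HFD mean of 6.25 FPKM, but SZ-A2 and SZ-A5, at 5.52 and 4.24, were above HFD5 at 4.14, so the groups overlapped. Between SZ-A and HFD mice the log2 fold change was −0.66 (SE 0.17, 95% interval −1.02 to −0.29), or 1.58-fold lower, and did not pass the adjustment (unadjusted p = 0.00192, limma adjusted p = 0.109). It stood 179th of the 10216 tested genes by p. With FPKM rescaled to a common sum it was −0.83 (limma adjusted p = 0.0487), and with sample weights −0.78 (limma adjusted p = 0.0272), and over the mice left out in turn it lay between −0.77 and −0.57 with no call. For HFD against NC the log2 fold change was 0.40 (95% interval −0.05 to 0.85, limma adjusted p = 0.195). It was 0.28 without NC6, the mouse with the lowest Nqo1 (limma adjusted p = 0.354), and it was called with sample weights (0.59, limma adjusted p = 0.0208). NC1 and NC5, at 6.96 and 6.48 FPKM, lay above the HFD median. The summed level of 4 adipocyte markers had a median of 2.36 FPKM in SZ-A and 38.2 in HFD mice, with overlapping ranges of 1.02 to 31.1 and 20.1 to 135. Of the 4 markers, 3 had a mean under 1 FPKM, and the 1 that was tested was not called between these groups. The part of this sum in the Nqo1 values was not tested. Within the HFD group, HFD4 had the lowest adipocyte sum and the highest Nqo1, and within the SZ-A group SZ-A2 had the highest of both.

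Hmox1 (ENSMUSG00000005413, chr8:75093621-75100589, plus strand) encodes heme oxygenase 1, which breaks heme down to biliverdin, iron and carbon monoxide. It is controlled by Nrf2, by the heme-sensing repressor Bach1 and by inflammatory signals, and macrophages express it strongly. It had the smallest p of the 10 genes for HFD against NC. In FPKM, NC mice spanned 9.87 to 13.1 around a median of 12.6, HFD mice 19.6 to 29.4 around 24.5, and SZ-A mice 14.0 to 48.5 around 19.1. Every HFD and every SZ-A mouse was above every NC mouse. The log2 fold change for HFD against NC was 1.03 (SE 0.11, 95% interval 0.79 to 1.26, limma adjusted p = 8.00e-05), 35th of the 10216 tested genes by p. Without NC6 it was 1.05 (limma adjusted p = 0.000219), and over the 25 alternatives it lay between 0.97 and 1.22 with a call in each.

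In SZ-A mice the Hmox1 values were spread far more widely than in the other groups, with a coefficient of variation of 53.4% against 15.2% in HFD and 10.2% in NC mice. SZ-A5 stood at 48.5 FPKM and SZ-A6 at 28.6, while SZ-A1, SZ-A2, SZ-A3 and SZ-A4 lay between 14.0 and 19.2, all 4 below the lowest HFD mouse. Between SZ-A and HFD mice it was −0.16 on the log2 scale (95% interval −0.70 to 0.39, limma adjusted p = 0.818), an interval that holds a fall of 0.70 as well as no change. With a mouse left out it lay between −0.38 (without SZ-A5, limma adjusted p = 0.289) and −0.03 (without SZ-A1, limma adjusted p = 0.971), and it was −0.06 without SZ-A2. For SZ-A against NC it was 0.87 (SE 0.24, limma adjusted p = 0.0412). This call was close to the threshold. Without SZ-A5 the value was 0.64 (limma adjusted p = 0.0207), and without NC6 it was 0.89 (limma adjusted p = 0.0557). It was lost on leaving out any 1 of the NC mice or SZ-A3, SZ-A4 or SZ-A6, with the highest limma adjusted p of 0.0916 without SZ-A6.

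Markers of several cell types differed between the same groups. The summed level of the 5 hepatocyte markers was lower in HFD mice, 22992 to 41161 FPKM (median 28830), than in NC mice, 37264 to 56520 FPKM (median 40582), with 3 of the 5 called lower, and it was 29665 to 52916 FPKM (median 31029) in SZ-A mice. The summed level of 9 macrophage markers was 131 to 270 FPKM in NC mice (median 190), 253 to 418 in HFD mice (median 339) and 226 to 322 in SZ-A mice (median 253). For HFD against NC, 4 of the 9 were called higher, and 1 was called lower for SZ-A against HFD. The 4 neutrophil markers summed to 1.02 to 5.64, 5.0 to 19.2 and 3.94 to 16.8 FPKM, and the 6 stellate cell markers to 55.4 to 67.2, 60.5 to 107 and 60.1 to 80.2 FPKM, in the same order of groups. The 4 adipocyte markers summed to 0.0447 to 7.51 FPKM in NC mice. No marker of these lists was at 0 in every mouse. In a whole piece of liver, more cells of a type and more RNA per cell cannot be told apart, and the part of these cells in the Hmox1 values was not tested. NC6 had a higher macrophage sum than HFD6, 270 against 253 FPKM, and the lower Hmox1 value, 13.1 against 19.6 FPKM. Inside the groups, NC6 was the highest and NC5 the lowest NC mouse for both, and HFD6 the lowest HFD mouse for both. The highest macrophage sum of the HFD mice was in HFD5 (418 FPKM) and their highest Hmox1 in HFD2 (29.4 FPKM). SZ-A5, with the highest Hmox1, had the highest macrophage and neutrophil sums of the SZ-A mice, 322 and 16.8 FPKM. The lowest Hmox1 of the SZ-A mice was in SZ-A1 (14.0 FPKM) and their lowest macrophage sum in SZ-A4 (226 FPKM). Among HFD mice the highest neutrophil sum, 19.2 FPKM, was in HFD6, which had their lowest Hmox1.

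Gclc (ENSMUSG00000032350, chr9:77754535-77794485, plus strand) encodes the catalytic subunit of glutamate-cysteine ligase, which carries out the rate-limiting step of glutathione synthesis. By group, NC mice spanned 26.3 to 76.6 FPKM around a median of 56.9, HFD mice 77.0 to 111 around 91.4, and SZ-A mice 68.1 to 93.7 around 83.2. The NC and HFD ranges touched without overlapping, NC3 at 76.6 and HFD5 at 77.0 being the nearest pair, and NC5 at 26.3 was far below the other NC mice. The log2 fold change for HFD against NC was 0.76 (SE 0.21, 95% interval 0.31 to 1.21, limma adjusted p = 0.0216). It was 0.55 without NC5 (limma adjusted p = 0.00621) and 0.84 without NC6 (limma adjusted p = 0.0168), and with the 1.2-fold threshold the call was lost only when genes of any level were tested (limma adjusted p = 0.0685). NC5 also had the highest hepatocyte sum (56520 FPKM) and the lowest macrophage sum (131 FPKM) of the 18 mice. Between SZ-A and HFD mice it was −0.15 (95% interval −0.37 to 0.06, limma adjusted p = 0.495). For SZ-A against NC it was 0.61 (95% interval 0.15 to 1.06, limma adjusted p = 0.0882), with all 6 SZ-A mice above the NC mean and overlapping groups. It was called without NC5, at a smaller value (0.40, limma adjusted p = 0.0447), and with all 18 mice in 1 fit (limma adjusted p = 0.0405), and it was 0.69 without NC6 (limma adjusted p = 0.0670).

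Gclm (ENSMUSG00000028124, chr3:122245557-122270732, plus strand) encodes the modifier subunit of the same enzyme. For Gclm, NC mice spanned 28.7 to 36.5 FPKM around a median of 34.2, HFD mice 34.4 to 43.8 around 36.5, and SZ-A mice 36.6 to 42.6 around 40.4. The lowest SZ-A mouse, SZ-A3, lay just above the highest NC mouse, NC1, so these groups did not overlap. Between SZ-A and NC mice the log2 fold change was 0.25 (SE 0.07, limma adjusted p = 0.0498), or 1.19-fold, which is under the fold threshold and was not called. It was called with voom on plain library totals (0.29, voom adjusted p = 0.0419) and without NC1. It was 0.17 for HFD against NC (95% interval −0.01 to 0.34, limma adjusted p = 0.158) and 0.08 for SZ-A against HFD (−0.07 to 0.24), and the latter turned to −0.09 on rescaling to a common sum. On that rescaling Gclm was called for HFD against NC (0.36, limma adjusted p = 0.0208), with 0.20 relative to the shift of all genes. Without NC6 the value was 0.17 for HFD against NC and 0.26 for SZ-A against NC (limma adjusted p = 0.180 and 0.0654). Groups without overlap, higher than NC, were found for 2 of the 10 genes in HFD mice (Hmox1 and Gclc) and for 2 in SZ-A mice (Hmox1 and Gclm), against 5.48% and 2.83% of all tested genes. None of the 10 genes separated SZ-A from HFD mice, against 1.28% of all tested genes in either direction.

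The ratio of Gclc to Gclm within a mouse does not depend on the scaling between mice. Its geometric mean was 1.61 in NC mice (0.918 to 2.34), 2.44 in HFD mice (2.06 to 2.80) and 2.07 in SZ-A mice (1.68 to 2.55). All 6 HFD mice were above the NC mean, and the difference of 0.60 on the log2 scale had p = 0.0108 by an exact two-sided permutation test of 6 against 6 mice, or 0.0974 after Benjamini-Hochberg adjustment over the 9 ratio tests. It was −0.24 between SZ-A and HFD mice (exact permutation p = 0.0736, adjusted 0.203). The ratio of Nfe2l2 to Keap1 differed by 0.15, −0.23 and −0.08 on the log2 scale for HFD against NC, SZ-A against HFD and SZ-A against NC, with exact permutation p of 0.346, 0.113 and 0.677. None of the 9 tests passed the adjustment. Leaving out NC3 took the Gclc/Gclm difference for HFD against NC to 0.70 (exact permutation, adjusted p = 0.0390), and without NC6 it was 0.67 (exact permutation, adjusted p = 0.0779).

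**Figure D3:**
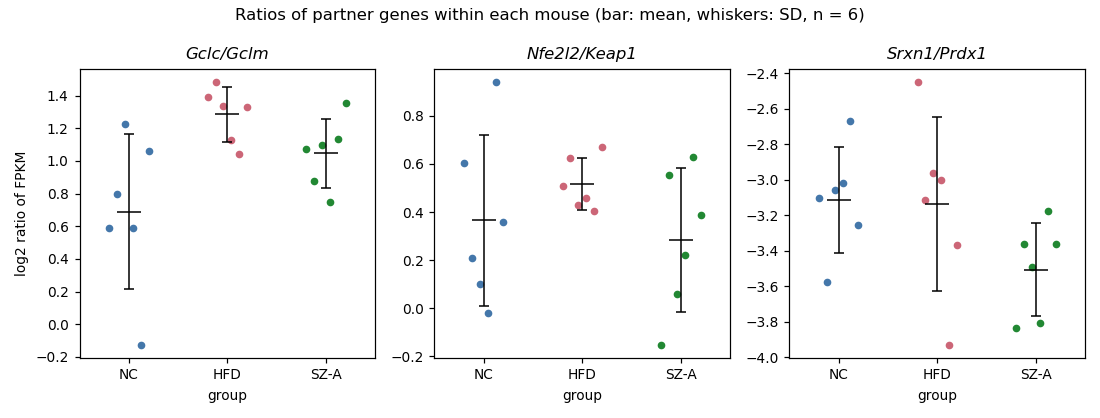
Log2 ratio of FPKM within each mouse (y axis) for Gclc/Gclm, Nfe2l2/Keap1 and Srxn1/Prdx1 in the 3 groups (x axis), with 1 point per mouse, a bar at the mean and whiskers of 1 SD (n = 6). The Gclc/Gclm mean is 0.69 in NC and 1.28 in HFD mice, and the Srxn1/Prdx1 mean is lowest in SZ-A mice, at −3.51.

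Gpx4 (ENSMUSG00000075706, chr10:80047166-80056439, plus strand) encodes the glutathione peroxidase that reduces lipid peroxides in membranes and holds back ferroptosis. By group, its level was 132 to 190 FPKM in NC (median 169), 163 to 231 in HFD (median 190) and 144 to 178 in SZ-A mice (median 156). All 6 SZ-A mice were below the HFD mean of 190 FPKM, although the groups overlapped. The log2 fold change for SZ-A against HFD was −0.26 (SE 0.09, 95% interval −0.46 to −0.06, unadjusted p = 0.0137, limma adjusted p = 0.207), and it was −0.44 on rescaling to a common sum (limma adjusted p = 0.0629). For HFD against NC it was 0.19 (95% interval −0.04 to 0.42, limma adjusted p = 0.231), and 0.17 without NC6 (limma adjusted p = 0.328). On rescaling to a common sum it was called (0.38, limma adjusted p = 0.0362), with 0.23 relative to the shift of all genes. These values are uncertain, because the table also lists a pseudogene of Gpx4, Gpx4-ps2, with a level of 60.6 ± 8.73 FPKM (SD, n = 6) in NC mice, 68.6 ± 10.4 in HFD mice and 61.6 ± 4.2 in SZ-A mice, and the authors' counting could split fragments between near-identical copies. Gpx4-ps2 differed by 0.18 and −0.14 on the log2 scale in the same 2 comparisons (limma adjusted p = 0.305 and 0.499).

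Srxn1, Txnrd1 and Prdx1 form a cycle. Prdx1 encodes an abundant peroxiredoxin that reduces hydrogen peroxide, Srxn1 the sulfiredoxin that repairs peroxiredoxins after overoxidation, and Txnrd1 the cytosolic thioredoxin reductase that supplies their electrons. None of the 3 was called in any comparison. Srxn1 (ENSMUSG00000032802, chr2:152105516-152111376, plus strand) was the most variable of them. NC mice spanned 20.9 to 40.2 FPKM around a median of 28.0, HFD mice 16.3 to 40.1 around 29.6, and SZ-A mice 15.9 to 30.9 around 21.9. Its log2 fold change was 0.02 for HFD against NC (95% interval −0.44 to 0.47), −0.37 for SZ-A against HFD (−0.83 to 0.09, limma adjusted p = 0.442) and −0.35 for SZ-A against NC (−0.75 to 0.05, limma adjusted p = 0.251). Without NC6 the first turned to −0.05 and the last was −0.42 (limma adjusted p = 0.180). The HFD and SZ-A ranges overlapped broadly, from the lowest HFD mouse, HFD5 at 16.3 FPKM, to the highest SZ-A mouse, SZ-A5 at 30.9.

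Txnrd1 (ENSMUSG00000020250, chr10:82833951-82897712, plus strand) was higher in the mean of SZ-A mice than in the other groups, by less than their spread. NC mice spanned 21.2 to 25.6 FPKM around a median of 23.5, HFD mice 19.0 to 24.5 around 23.0, and SZ-A mice 19.0 to 29.5 around 25.7. The 3 ranges overlapped, and SZ-A5 and SZ-A6 were the 2 highest mice. As log2 fold changes, the values were −0.06 for HFD against NC (95% interval −0.23 to 0.11) and 0.12 for SZ-A against HFD (−0.11 to 0.34), and both signs turned on rescaling to a common sum, to 0.13 and −0.06. Without NC6 the first was −0.07. Prdx1 (ENSMUSG00000028691, chr4:116685544-116700822, plus strand) was the most abundant of the 10 genes and had the smallest ratio of highest to lowest mouse. NC mice spanned 202 to 256 FPKM around a median of 247, HFD mice 219 to 266 around 250, and SZ-A mice 223 to 280 around 245. Its highest mouse was 1.38 times its lowest, and its log2 fold change was 0.04 for HFD against NC (95% interval −0.14 to 0.22) and −0.00 for SZ-A against HFD (−0.17 to 0.16). Without NC6, its lowest mouse, the first was −0.0032. Within mice, Srxn1 relative to Prdx1 was lower than the NC mean in all 6 SZ-A mice, by 0.39 on the log2 scale (exact permutation p = 0.0390, adjusted 0.175), and by 0.42 without NC6 (exact permutation p = 0.0476, adjusted 0.203).

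FPKM is a level per length of gene, so the 10 levels can be ordered. By the mean over the 18 mice, Prdx1 (242 FPKM) and Gpx4 (172) stood first, followed by Gclc (77.1), Gclm (37.0), Srxn1 (26.3), Txnrd1 (23.7), Hmox1 (20.3), Nfe2l2 (16), Keap1 (12.2) and Nqo1 (4.99). The ranges over mice of neighbours in this order overlapped, with the exception of Gpx4 and Gclc, where 132 is the lowest and 111 the highest value, and of Keap1 and Nqo1, with 9.12 and 8.13. The place of Hmox1 differed between groups, since by group means it lay below Nfe2l2 in NC mice (12 against 15.2 FPKM), above Txnrd1 in HFD mice (24.7 against 22.7) and above Srxn1 in SZ-A mice (24.2 against 22.0). The genes varied to different degrees. The highest mouse was 4.91 times the lowest for Hmox1, 4.2 times for Gclc, 2.74 times for Nqo1 and 2.52 times for Srxn1, and between 1.38 and 1.75 times for the other 6.

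**Figure D4:**
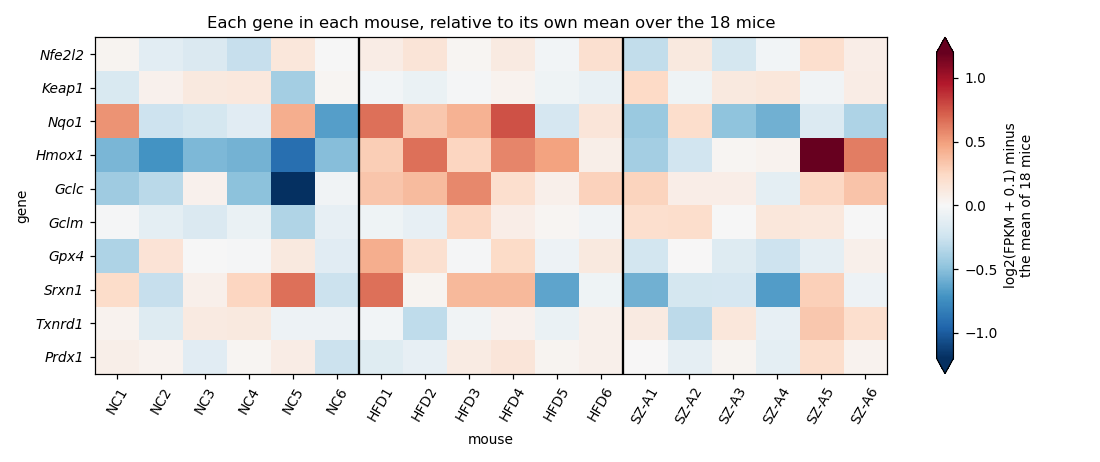
Each of the 10 genes (rows) in each of the 18 mice (columns, grouped as NC, HFD and SZ-A), coloured by log2(FPKM + 0.1) minus the mean of that gene over the 18 mice, with the colour scale ending at the values marked by its arrows. Hmox1 is below its mean in all 6 NC mice and above it in all 6 HFD mice, and NC5 and SZ-A5 hold the deepest colours.

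A further 48 genes of the pathway and the systems it feeds were listed by role, and 46 of them were abundant enough to be tested. The cystine transporter gene Slc7a11, at a mean of 0.03 FPKM, and the export pump gene Abcc4, at 0.53 FPKM, were not. For HFD against NC, 18 of the 46 were called (39.1%, against 20.2% of all tested genes), 14 higher and 4 lower, with a median log2 fold change of 0.12. The split depends on scaling, because on rescaling to a common sum 20 were called, all higher. Without NC6, 17 were called, 13 higher and 4 lower, with Pgd lost (0.34, limma adjusted p = 0.0833). The list was chosen with results of these data known, so its share is given as a description.

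The small Maf genes encode proteins that pair with Nrf2 on DNA. Of them, Maff and Mafk rose with no overlap between HFD and NC mice, a pattern found in 5.48% of all tested genes. Mafg, the most abundant of them at a mean of 14.1 FPKM, was not called (−0.05, limma adjusted p = 0.801). Maff ranged from 0.976 to 2.83 FPKM in NC mice, 3.82 to 6.79 in HFD mice and 3.77 to 9.37 in SZ-A mice, and its log2 fold change was 1.38 for HFD against NC (SE 0.25, limma adjusted p = 0.00200) and 1.69 for SZ-A against NC (SE 0.29, limma adjusted p = 0.00380). Mafk rose by 0.48 for HFD against NC (limma adjusted p = 0.00582). The other 6 regulators (Cul3, Rbx1, Mafg, Bach1, Sqstm1 and Nfe2l1) were not called. For HFD against NC, 2 of the 8 regulators were called (25%), near the 20.2% of all tested genes.

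Of the 4 glutathione genes tested, 3 were called for HFD against NC (75%, against 20.2% of all tested genes). Among them, Gpx1, the abundant cytosolic glutathione peroxidase, ranged from 945 to 1261 FPKM in NC mice, 1396 to 1839 in HFD mice and 1339 to 1777 in SZ-A mice. Its log2 fold change was 0.59 for HFD against NC (limma adjusted p = 0.00121) and 0.49 for SZ-A against NC (limma adjusted p = 0.0114). Gsr, which regenerates reduced glutathione, fell by 0.31 and Glrx, a glutaredoxin, fell by 0.63 for HFD against NC (limma adjusted p = 0.0205 and 0.0444), and neither call held on rescaling to a common sum. Of the 9 thioredoxin and peroxiredoxin genes, 3 were called for HFD against NC (33.3%, against 20.2% of all tested genes). Txn1 (0.43, limma adjusted p = 0.00419) and Prdx6 (0.33, limma adjusted p = 0.0312) rose in the same comparison. The mitochondrial Txn2 fell by 0.30 (limma adjusted p = 0.0231), again with no call on rescaling or without NC2, NC5 or HFD2. Of the 7 further genes listed under quinone reduction, not all of which encode reductases, 5 were called, against 20.2% of all tested genes. Cbr3 (1.27), Aox1 (0.59), Akr1a1 (0.36) and Ugdh were higher and Cbr1 lower (limma adjusted p = 0.0126, 0.00838 and 0.00253 for the first 3). Cbr3 is a low gene, at 0.728 FPKM in NC and 2.09 in HFD mice.

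The pentose phosphate pathway makes the NADPH that glutathione and thioredoxin reduction use up. Of its tested genes, G6pdx (0.57), Pgd (0.37) and Taldo1 (0.32) rose for HFD against NC, with limma adjusted p of 0.0381, 0.0463 and 0.0133. Tkt, of the same pathway, was not called (0.20, limma adjusted p = 0.193). In the list of NADPH supply, 3 of 6 genes were called (50%, against 20.2% of all tested genes). Between SZ-A and HFD mice the values of G6pdx, Pgd and Taldo1 were −0.34, −0.32 and −0.19, with all 6 SZ-A mice below the HFD mean for each gene. None passed the adjustment (limma adjusted p = 0.204, 0.197 and 0.228), and Tkt had −0.07 (limma adjusted p = 0.799). These 3 genes were named for their calls in the same HFD mice, a choice that favours lower SZ-A values. Me1, the cytosolic malic enzyme, which is also a lipogenic gene, was called lower for SZ-A against NC (−0.54, limma adjusted p = 0.0175), with values of 19.6 to 28.3 FPKM in SZ-A and 28.9 to 46.1 in NC mice. In heme and iron handling, Blvra, which reduces the biliverdin that Hmox1 releases, rose by 0.37 for HFD against NC (limma adjusted p = 0.0153), and Slc40a1, the iron exporter ferroportin, by 0.37 (limma adjusted p = 0.0310). These were 2 of 5 genes of that list (40%, against 20.2% of all tested genes). Blvrb, Fth1 and Ftl1 were not called (0.03, 0.21 and −0.20). Of the export pumps, Abcc3 had 0.13 for HFD against NC and −0.43 for SZ-A against HFD (limma adjusted p = 0.373 and 0.20). Of the selenoprotein synthesis genes, Eefsec, the selenocysteine elongation factor, was called lower for SZ-A against NC (−0.28, limma adjusted p = 0.0427). Several of these calls lay close to the threshold and were lost with some mice left out or other settings. Of 25 alternatives, that of Eefsec for SZ-A against NC was lost in 18 (limma adjusted p up to 0.0870), that of Glrx for HFD against NC in 16 (up to 0.120), that of Slc40a1 in 9 (up to 0.0678) and that of Prdx6 in 8 (up to 0.0635). Of 24 alternatives, those of Pgd and G6pdx were lost in 11 and 10 (up to 0.10 and 0.0877). The calls of Maff, Mafk, Gpx1, Txn1, Cbr3, Aox1 and Akr1a1 for HFD against NC held in all of them.

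For SZ-A against HFD, 0 of the 46 genes were called by limma or by voom, 9 (against 14.8% of all tested genes) were at an unadjusted p under 0.05, and the median log2 fold change was −0.00 against 0.03 over all tested genes. The smallest p was that of Prdx4, a peroxiredoxin of the endoplasmic reticulum, which was picked out after its values were seen. It ranged from 18.9 to 28.2 FPKM in HFD mice and from 28.7 to 34.4 in SZ-A mice, without overlap, with a log2 fold change of 0.44 (SE 0.10, limma adjusted p = 0.0877). It was called without HFD5 (0.49, limma adjusted p = 0.0437) and with sample weights (0.46, limma adjusted p = 0.0272). For SZ-A against NC, 4 of the 46 were called (8.70%, against 9.60% of all tested genes), Maff and Gpx1 higher and Me1 and Eefsec lower. Without NC6 the count was again 4, with Glrx lower (−0.71, limma adjusted p = 0.0245) in place of Eefsec (limma adjusted p = 0.0696).

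**Figure D5:**
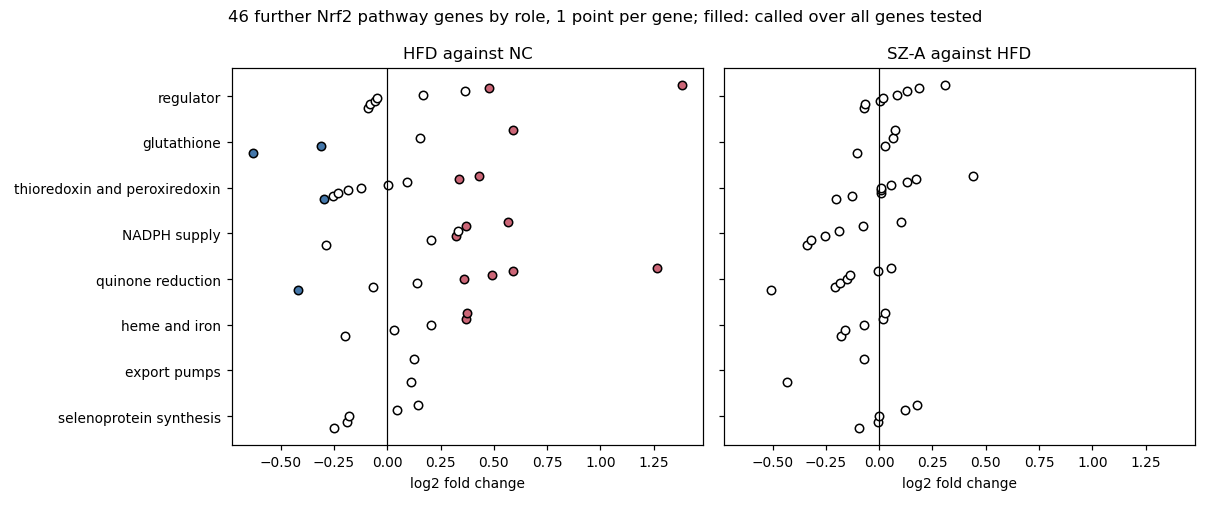
Log2 fold change (x axis) of the 46 further pathway genes, 1 point per gene, by role (y axis), for HFD against NC and SZ-A against HFD, with called genes filled. For HFD against NC, 14 genes are filled to the right of 0 and 4 to the left, and for SZ-A against HFD none is filled.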

How the data were processed

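Liver RNA of 18 mice (6 NC, 6 HFD, 6 SZ-A) was poly-A selected and sequenced as paired-end reads. The submitters' processing notes name HISAT2 2.0.5 and featureCounts 1.5.0-p3, and the genome was GRCm38. The library preparation is not stated to keep strand, so reads of overlapping antisense genes could not be told apart. The authors deposited FPKM for 54532 genes. FPKM times gene length gave whole fragments within 0.05 of a fragment, from which the depth was worked back. The authors used DESeq2, which was not run here. The main test was made on the deposited FPKM, and the fragments worked back from them were tested with voom as an alternative.

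Values were tested with limma 3.58.1 in R 4.3.3 (lmFit and eBayes with intensity trend) on log2(FPKM + 0.1), on the 2 groups compared, for 10216 genes whose mean FPKM was 1 or more. The pseudocount understates changes of low genes. The labels number the samples within a group without stating that each is a separate mouse, as taken here, and p-values measure the spread between these samples. Ratios were tested by exact permutation in Python 3.11.15 with scipy 1.17.1. The limma script was tested on simulated data. Mice of 1 group all differed by more than counting noise.

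Replicate numbers were not treated as pairs in the main test. Same-numbered mice had correlated deviations (r over 0.1) in 3 of 18 pairs (r −0.12 to 0.29), which cannot exclude a shared cage or batch. The 10 genes, the 48 further pathway genes and the cell markers were chosen with earlier results of these data known. Named pathway genes are those called in any comparison, at most 3 per role and comparison by p, and 1 for a role with no call. Ugdh, Cbr1, Prdx4, Tkt, Blvrb, Fth1 and Ftl1, the filtered Slc7a11 and Abcc4 and the uncalled regulators are named beyond this rule. Of the other marker lists, endothelial sums were 38.8 to 47.7, 43.2 to 56.6 and 46.1 to 49.7 FPKM, cholangiocyte sums 10.9 to 39.0, 21.8 to 44.3 and 15.1 to 30.1, lymphocyte sums 0.357 to 2.49, 0.678 to 1.78 and 0.543 to 2.38, and red blood cell sums 193 to 388, 151 to 310 and 235 to 471, in NC, HFD and SZ-A mice. Alternatives were pseudocounts of 1 and 0.01, no filter, a mean FPKM of 5 or more, rescaling to a common sum, median-ratio scaling, all 18 mice in 1 fit, eBayes without trend or with the robust option, sample weights, a replicate block, voom on the fragments with median-ratio or plain library sizes, no fold threshold or a fold over 2, and each mouse left out.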

Additional observations from a re-analysis of the deposited data

How the results depend on the processing

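The number of the 10 genes called for HFD against NC (2) was 1 with a fold over 2, 1 with no filter on low values, and 5 both with FPKM rescaled to a common sum and with voom on plain library totals, which add Nfe2l2, Gclm and Gpx4, and 3 with sample weights, which add Nqo1. For SZ-A against HFD (0) it was 1, Nqo1, on rescaling to a common sum and 1 with sample weights. For SZ-A against NC (1) it was 2 with no fold threshold, with all 18 mice in 1 fit and with voom on plain totals, and 0 with a fold over 2, with no filter and with the replicate block. With each mouse left out it stayed at 2 and at 0 in the first and second comparisons and was 0 to 1 in the third. There the gene called was Gclm without NC1 and Gclc without NC5, with Hmox1 lost in both. The replicate block changed no other call of the 10 genes, with 2 called for HFD against NC and 0 for SZ-A against HFD, and it left 9 of the 46 further genes called for HFD against NC in place of 18. With each mouse left out these 18 were 12 to 17. Over all genes, the 15 called for SZ-A against HFD ranged from 0 (no filter, replicate block) to 233 (sample weights), with 216 on rescaling and 2 to 49 with a mouse left out, the 981 for SZ-A against NC from 564 (no filter) to 1682 (sample weights), and the 2062 for HFD against NC from 1271 (mean FPKM of at least 5) to 2666 (sample weights).

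Of 747 alternatives to the fold changes of the 10 genes, 697 kept direction and side of the threshold, 12 lost the call, 13 gained it and 25 turned sign. For the further pathway genes named by the rule above, 9 of 1410 alternatives turned sign, and the lists that follow hold both sets. The values that turned sign for HFD against NC were Keap1 with sample weights (−0.079), Txnrd1 on rescaling and with voom on plain totals (0.13 and 0.099) and Eefsec on rescaling (0.0018). For SZ-A against HFD they were, on rescaling, Keap1 (−0.058), Gclm (−0.094), Txnrd1 (−0.059), Gsr (−0.10), Glrx (−0.11), Txn2 (−0.0039) and Prdx6 (−0.12), with voom on plain totals Gclm (−0.030), Gsr (−0.037), Glrx (−0.047) and Prdx6 (−0.057), and with voom on median-ratio sizes Prdx1 (0.00071). With a mouse left out, the range for HFD against NC was −0.067 to 0.041 for Keap1, −0.086 to 0.17 for Srxn1 and −0.0032 to 0.074 for Prdx1, for SZ-A against HFD −0.042 to 0.023 for Prdx1 and −0.14 to 0.0061 for Slc40a1, and for SZ-A against NC −0.00023 to 0.099 for Nfe2l2 and −0.0053 to 0.066 for Prdx1. Of the ratios with a mouse left out, Gclc/Gclm for HFD against NC was 0.43 to 0.70, Srxn1/Prdx1 for SZ-A against NC −0.49 to −0.30 (adjusted exact permutation p = 0.0487 without NC2), Nfe2l2/Keap1 for SZ-A against NC −0.16 to 0.033 and Srxn1/Prdx1 for HFD against NC −0.16 to 0.14. The causes were not tested, and depth limits Nqo1 most, with as few as 87 fragments in a mouse.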

Other observations

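The extremes of the 10 genes gathered in a few mice, which no comparison of groups shows. SZ-A5 held the highest of the 18 values for Nfe2l2, Hmox1, Txnrd1 and Prdx1. NC5 held the lowest for Keap1, Hmox1, Gclc and Gclm and the highest for Srxn1. NC6, whose diet label contradicts its title, held the lowest for Nqo1 (2.97 FPKM) and Prdx1 (202 FPKM), while its Hmox1 of 13.1 FPKM, the highest of the NC mice, remained below the lowest HFD mouse at 19.6 FPKM. In 39 groups of 6 values (the 10 genes and 3 ratios in each group of mice), none held a value far enough from the others to pass Dixon's test.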
